A study of Homo sapiens with 8 samples.

Results

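The 10 genes described here are transcriptional targets of the YAP and TEAD proteins and the cofactors that drive them. They were chosen by name, as rows of a table of 39533 genes, and all 10 were present: the 7 targets CCN1, CCN2, THBS1, ANKRD1, AMOTL2, LATS2 and AJUBA, and the 3 cofactors YAP1, WWTR1 and TEAD4. RNA was counted in 8 libraries of HCT116 cells, an established human line of colorectal cancer origin, in a study of tumour self-seeding, in which tumour cells that have entered the blood return to the tumour they left. The libraries came from self-seeded tumour cells (TSC, n = 3) taken from the primary tumour, circulating tumour cells (CTC, n = 2) taken from blood, and primary tumour cells (PC, n = 3) taken from the primary tumour. All groups derive from this 1 line and no treatment is named. The sources used here do not give the host, its age or the way seeded cells were told apart from the other tumour cells. The title of the series speaks of liver cancer, which HCT116 is not. Whether replicates are separate cultures or animals is not stated. The p-values therefore cover only how far these samples differ, possibly for technical reasons.

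YAP, encoded by YAP1, and TAZ, encoded by WWTR1, are coactivators without a DNA-binding domain of their own. In the nucleus they bind TEAD transcription factors such as TEAD4 and switch on genes for secreted matrix proteins, nuclear regulators and parts of the Hippo pathway. The Hippo kinases, LATS2 among them, phosphorylate YAP and TAZ and keep them in the cytoplasm. Soft surroundings, loss of attachment and high cell density favour that state, and in the intestine the pathway is known for its part in regeneration and in colorectal tumours. Phosphorylation and location in the cell are not visible in RNA counts.

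The TEAD proteins recognise the letters GGAATG, and 8 of the 10 genes had a promoter window in the RefSeq tables (250 bases before the start of the gene and 50 from it, build GRCh38.p14). CCN1 and TEAD4 had no window there. On either strand, GGAATG lay in 5 of the 8 windows, those of CCN2, ANKRD1, THBS1, LATS2 and YAP1, against 14% of 35116 promoter windows of the same length. AMOTL2, AJUBA and WWTR1 had no match in their windows. The window of WWTR1 (149703224 to 149703523, minus strand) lies within the gene, which starts at 149724788. Its lack of a match therefore does not describe the start of the gene. The AP-1 letters were searched on both strands in the loose form TGANTCA, where N is any base. They lay in 1 of the 8, that of ANKRD1, against 7.71% of all windows. There they read TGATTCA and did not overlap a GGAATG match. The 3 windows below are shown because CCN2 and ANKRD1 held the most matches to GGAATG, 3 and 2, while being the least counted of the 10 genes, and because THBS1 was the only one of the 10 called higher in a comparison with PC. Capitals mark the letters GGAATG and, in ANKRD1, also the match to TGANTCA, and each window is written on the strand of its gene. A match describes letters and is not evidence of binding.
CCN2 (chr6:131951323-131951622, minus strand): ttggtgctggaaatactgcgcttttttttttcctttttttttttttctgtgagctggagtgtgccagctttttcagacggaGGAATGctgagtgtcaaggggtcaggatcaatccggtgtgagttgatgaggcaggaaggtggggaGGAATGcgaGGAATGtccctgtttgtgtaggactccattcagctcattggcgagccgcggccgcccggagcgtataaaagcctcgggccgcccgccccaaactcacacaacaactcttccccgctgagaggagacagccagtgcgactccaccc
ANKRD1 (chr10:90921038-90921337, minus strand): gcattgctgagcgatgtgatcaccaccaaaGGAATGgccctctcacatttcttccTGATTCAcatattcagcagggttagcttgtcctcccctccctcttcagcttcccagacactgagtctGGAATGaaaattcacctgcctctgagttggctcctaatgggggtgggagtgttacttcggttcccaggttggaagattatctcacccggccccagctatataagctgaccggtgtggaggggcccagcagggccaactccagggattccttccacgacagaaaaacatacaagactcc
THBS1 (chr15:39580829-39581128, plus strand): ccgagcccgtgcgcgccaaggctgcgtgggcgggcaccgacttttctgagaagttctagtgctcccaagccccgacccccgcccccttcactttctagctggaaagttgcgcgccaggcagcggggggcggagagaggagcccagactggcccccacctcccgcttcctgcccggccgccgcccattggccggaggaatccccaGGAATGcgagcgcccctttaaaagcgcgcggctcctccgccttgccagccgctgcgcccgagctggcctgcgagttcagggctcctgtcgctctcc
The matches of CCN2 began 169, 104 and 95 bases before the start of the gene. That of THBS1 began 46 bases before it.

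**Figure D1:**
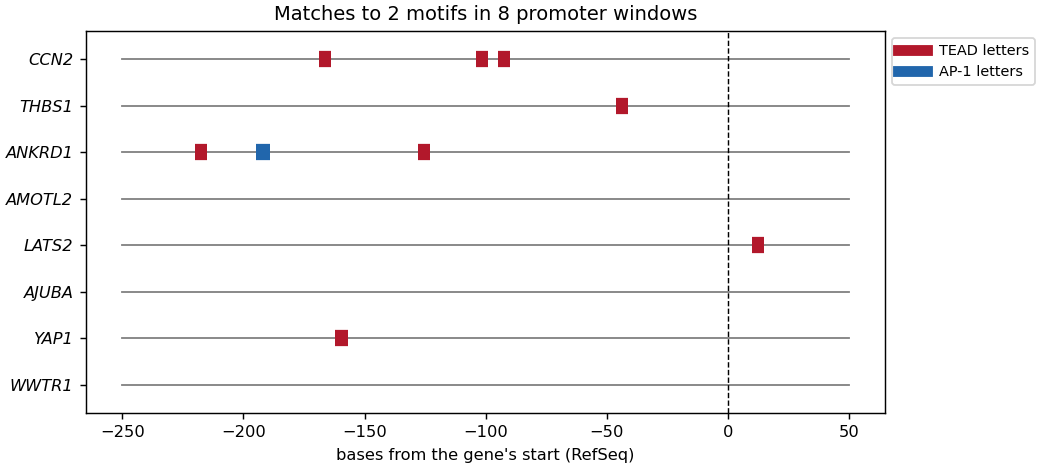
Positions of matches to the TEAD letters (red) and the AP-1 letters TGANTCA (blue) along 8 promoter windows. Positions are in bases from the dashed line, the RefSeq start of each gene except WWTR1, whose window lies within the gene. CCN2 held 3 TEAD matches and ANKRD1 held 2, while AMOTL2, AJUBA and WWTR1 held no match.

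Total counts ran from 4578869 to 14717833 in TSC, were 957607 and 10524069 in CTC replicates 1 and 2, and ran from 10864761 to 19264595 in PC. Levels are given in CPM, the count of a gene relative to the reads of all tested genes after scaling of the libraries to each other. With 3 counts as the floor, a count of 0 allowed 2.99 CPM in the shallow CTC replicate 1 and at most 0.668 CPM elsewhere. All 8 libraries had 0 counts of 16547 genes, the housekeeping genes RPS25, NDUFS1 and UQCRC2 among them, so a gene listed at 0 need not have been silent. Floors and intervals on counts cover counting error only. The epithelial markers EPCAM, CDH1, KRT8, KRT18 and KRT19 were counted in every library, and CLDN7 was listed at 0 in all of them. Summed, these markers stood at 7950 to 9211 CPM in TSC, 5133 and 7584 CPM in CTC and 5919 to 7975 CPM in PC.

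Per length of transcript, CCN1 and YAP1 stood highest among the 10 genes and ANKRD1 lowest. CCN1 averaged 15.1 ± 4.95 CPM per kilobase of exon in TSC (SD, n = 3), 15.6 ± 6.73 in CTC (SD, n = 2) and 47.0 ± 9.88 in PC (SD, n = 3). YAP1 followed at 18.7 ± 1.59 CPM per kilobase in TSC, 16.9 ± 4.98 in CTC and 23.7 ± 2.12 in PC. On this scale the mean of YAP1 stood above that of CCN1 in TSC and CTC, where the ranges of both genes overlapped, and below it in PC, where they did not. WWTR1 came next at 14.3 ± 1.63 CPM per kilobase in TSC, 13.9 ± 2.68 in CTC and 14.0 ± 1.89 in PC. In PC the order then ran AMOTL2 (11.8 ± 2.26 CPM per kilobase), TEAD4 (11.1 ± 1.58), LATS2 (6.25 ± 0.756), AJUBA (5.10 ± 0.227), THBS1 (2.59 ± 0.620), CCN2 (1.10 ± 0.623) and ANKRD1 (0.0706 ± 0.122), where the ranges of WWTR1, AMOTL2 and TEAD4 overlapped each other and the rest did not overlap their neighbours. In CTC THBS1 stood at 10.4 ± 3.26 CPM per kilobase, with both libraries above those of AMOTL2, LATS2 and AJUBA.

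Self-seeded cells were first set against primary tumour cells. Here CCN1 was the 1 of 9 tested genes that fell, the other 8 were not called, and 0 rose. ANKRD1 was too sparse to be tested. Over all 14255 tested genes, 0.505% were called in this comparison, 0.281% lower and 0.224% higher, so 1 call among 9 genes is a small count set against a small background. At an unadjusted p under 0.05 stood 3 of the 9, against 10.3% of all tested genes. The median log2 fold change of the 9 genes was −0.27, against 0.01 for all tested genes.

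Circulating cells set against primary tumour cells gave 2 calls of 9 genes, CCN1 lower and THBS1 higher in CTC. The background was 2.52% of tested genes called lower and 1.4% called higher, 3.92% in all. The median of the 9 genes was −0.22, against −0.04 for all tested genes, 8 of the 9 fold changes were negative, against 52.6% of all tested genes, and 4 of the 9 had an unadjusted p under 0.05, against 23.6%. TSC set against CTC gave 1 call of 9, THBS1 lower in TSC, where 0.898% of tested genes were called and 0.526% were called lower. All 3 comparisons came from 1 model, and those with PC share the PC libraries, so their fold changes are not independent of each other. Single libraries were also left out in turn. Without CTC replicate 2 the shallow replicate 1 is the only CTC library, and most calls of CTC against PC were lost over all genes. A call lost in that setting is therefore not particular to its gene.

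**Figure D2:**
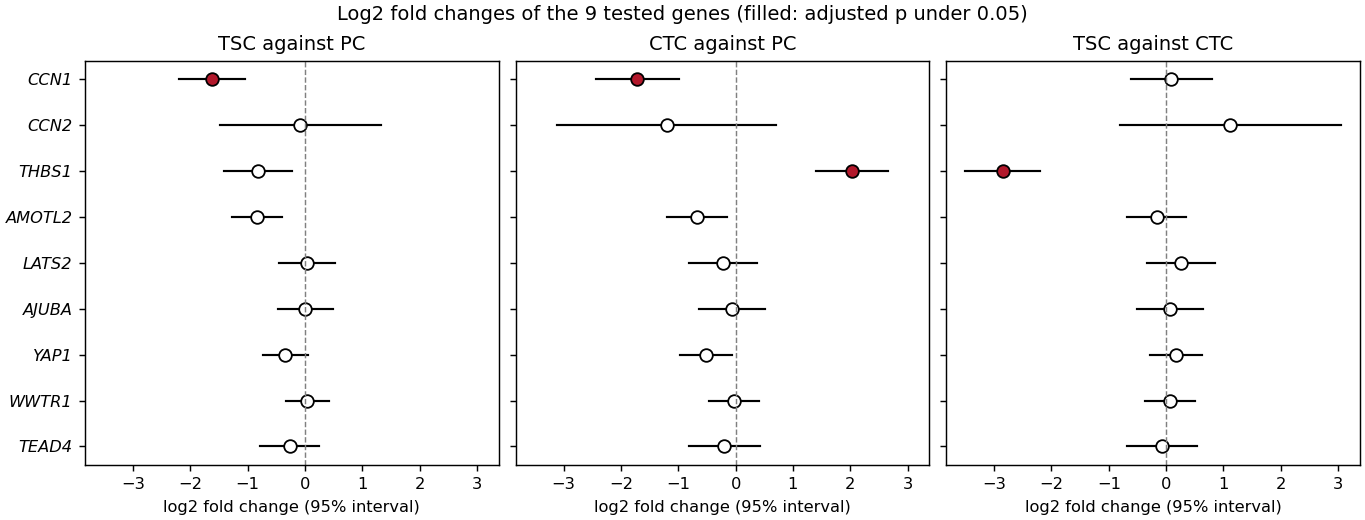
Log2 fold change of the 9 tested genes (points) with its 95% interval (lines) for TSC against PC, CTC against PC and TSC against CTC, filled where the adjusted p was under 0.05. CCN1 was lower than in PC in both groups, at −1.62 and −1.71, and THBS1 was 2.03 higher in CTC than in PC.

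CCN1, formerly CYR61, encodes a secreted matrix protein that binds integrins, and it is both a YAP target and an immediate early gene, one that growth factors induce within minutes. It lies on chromosome 1 from 85580761 to 85583950 (hg38). It was at 23.4, 41.1 and 46.7 CPM in TSC replicates 1 to 3, at 49.9 and 26.5 CPM in CTC replicates 1 and 2, and at 89.4, 137 and 119 CPM in PC replicates 1 to 3. Every TSC and CTC library thus lay below every PC library, and the TSC and CTC ranges overlapped. CCN1 was 3.08-fold lower in TSC than in PC (log2 fold change −1.62 ± 0.27 SE, edgeR quasi-likelihood test, Benjamini-Hochberg adjusted p = 0.0139). It was 3.28-fold lower in CTC than in PC (−1.71 ± 0.34 SE, edgeR adjusted p = 0.0153). Between TSC and CTC the difference was 0.09, with a 95% interval from −0.61 to 0.80 (edgeR adjusted p = 0.924). The call of TSC against PC was lost without TSC replicate 3 (adjusted p = 0.0531), PC replicate 2 (adjusted p = 0.0975) or PC replicate 3 (adjusted p = 0.0544), with log2 fold changes between −1.83 and −1.42 over all 8 single omissions. That of CTC against PC was lost without CTC replicate 2 (−1.22, adjusted p = 0.273) and without PC replicate 2 (−1.55, adjusted p = 0.055).

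CCN2, formerly CTGF, encodes the related connective tissue growth factor and is, with CCN1, the target most often used to read YAP activity. It lies on chromosome 6 from 131948176 to 131951372. Only 203 of its reads were counted over the 8 libraries, 5, 36 and 38 in TSC replicates 1 to 3, 1 and 12 in CTC replicates 1 and 2, and 11, 40 and 60 in PC replicates 1 to 3. In CPM these were 1.11, 2.54 and 3.44 in TSC, 0.997 and 1.14 in CTC, and 0.921, 3.68 and 3.12 in PC. PC replicate 1 stood below both CTC libraries while the other PC libraries stood above them, so the groups overlapped. The single count of CTC replicate 1 has an exact Poisson interval (95%) from 0.0253 to 5.56 CPM. The difference between TSC and PC was −0.08, with a 95% interval from −1.48 to 1.32 (edgeR adjusted p = 0.981). That between CTC and PC was −1.2, from −3.12 to 0.71 (adjusted p = 0.438). The estimate for CCN1 in TSC against PC, −1.62, lies outside this interval of CCN2. The interval of CCN1 itself ran from −2.2 to −1.04 and overlapped that of CCN2, so a difference between the 2 genes is not shown. For CTC the estimate for CCN1, −1.71, lies inside the interval of CCN2.

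THBS1 encodes thrombospondin 1, a matrix glycoprotein that activates latent TGF-β and that platelets and monocytes also make. It lies on chromosome 15 from 39581079 to 39599466. It was at 8.24, 16.8 and 14.2 CPM in TSC replicates 1 to 3, at 73.8 and 116 CPM in CTC replicates 1 and 2, and at 17.2, 26.3 and 27.6 CPM in PC replicates 1 to 3. All TSC libraries lay below all PC libraries, and both CTC libraries lay above every other library. THBS1 was 4.09-fold higher in CTC than in PC (log2 fold change 2.03 ± 0.30 SE, edgeR adjusted p = 0.00276). It was 7.23-fold lower in TSC than in CTC (−2.85 ± 0.31 SE, edgeR adjusted p = 0.000199). In TSC against PC it was at −0.82 ± 0.27 and was not called (adjusted p = 0.301). Without CTC replicate 2 the call of CTC against PC was lost (1.63, adjusted p = 0.139), and that of TSC against CTC was kept in all 8 single omissions (−3.11 to −2.46).

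Markers of blood cells were also higher in CTC, where 6 of 7 tested leukocyte markers (among them PTPRC, LYZ and CSF1R) and 3 of 3 tested erythroid markers rose against PC. Of all tested genes 1.4% were called higher in that comparison. HBB, ALAS2 and SLC4A1, the 3 tested erythroid markers, did not exceed 0.754 CPM outside CTC. They passed the filter on low counts through the CTC libraries. PTPRC, ITGAM, LYZ and LCP1 also needed a CTC library to pass. That these markers were higher in CTC follows in large part from the filter, so their share is not a result. In TSC against PC edgeR called 0 leukocyte and 0 erythroid markers, with 1 of each at an unadjusted p under 0.05. Of 12 leukocyte markers 9 had counts, with CD3E, S100A8 and S100A9 at 0, and their sum was 27.0 to 52.0 CPM in TSC, 409 and 157 CPM in CTC replicates 1 and 2 and 14.8 to 23.6 CPM in PC. CD68 alone made up most of the sums in TSC (26.5, 49.2 and 21.3 CPM) and PC (10.8, 15.3 and 20.7 CPM). It was at 19.9 and 14.2 CPM in CTC replicates 1 and 2. Of 7 platelet markers 4 had counts, and their sum was 0 to 1.54 CPM in TSC, 4.99 and 1.91 CPM in CTC replicates 1 and 2 and 1.2 to 1.97 CPM in PC. The CTC sums rest on 5 and 20 counts. PF4, PPBP and GP9 were listed at 0 in all libraries, as were housekeeping genes, so their 0 does not show that platelets were absent. Erythroid markers (5 of 7 with counts, HBA2 among those at 0) summed to 0.0904 to 0.565 CPM in TSC, 195 and 252 CPM in CTC replicates 1 and 2 and 0.104 to 1.59 CPM in PC. Of the CTC libraries, replicate 1 had the higher leukocyte and platelet sums. Replicate 2 had the higher erythroid sum and the higher THBS1 level. The part of blood cells in the THBS1 result was not tested. In these bulk libraries fewer cells that make a transcript cannot be told apart from less RNA per cell.

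ANKRD1 encodes a nuclear ankyrin-repeat protein that is a YAP target in many cell types. It lies on chromosome 10 from 90912096 to 90921087. Only 6 of its reads were counted in all, 5 in PC replicate 1 and 1 in TSC replicate 3, and both CTC libraries and the other 4 libraries were at 0. It did not pass the filter on low counts and has no test. With 3 counts as the floor, its 0 in the shallow CTC replicate 1 allowed 2.99 CPM.

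The Hippo pathway regulators among the targets feed back on YAP and TAZ. AMOTL2 encodes an angiomotin that binds YAP at cell junctions, and it lies on chromosome 3 from 134355345 to 134375417. It was at 30.3, 42.3 and 45.0 CPM in TSC replicates 1 to 3, at 45.9 and 43.1 CPM in CTC replicates 1 and 2, and at 66.2, 59.6 and 85.6 CPM in PC replicates 1 to 3. As for CCN1, every TSC and CTC library lay below every PC library. The log2 fold change was −0.84 ± 0.20 SE in TSC against PC (edgeR adjusted p = 0.107) and −0.67 ± 0.24 SE in CTC against PC (adjusted p = 0.115), so AMOTL2 was not called in either. In TSC against PC it was called lower with no filter on low counts (adjusted p = 0.00603), in DESeq2 (adjusted p = 0.0186) and in limma-voom (adjusted p = 0.0381).

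LATS2 encodes a kinase that phosphorylates YAP and TAZ, on chromosome 13 from 20973036 to 21061586. It was at 25.4, 46.8 and 34.0 CPM in TSC replicates 1 to 3, at 33.9 and 27.6 CPM in CTC, and at 30.7, 34.9 and 39.1 CPM in PC replicates 1 to 3. The TSC libraries spanned the whole range of the other groups. The log2 fold change was 0.03 in TSC against PC (95% interval −0.45 to 0.52, edgeR adjusted p = 0.976) and −0.22 in CTC against PC (−0.82 to 0.37, adjusted p = 0.663). AJUBA, a LIM-domain protein gene whose product restrains LATS kinases, lies on chromosome 14 from 22971177 to 22982551. It was at 38.5, 24.6 and 29.6 CPM in TSC replicates 1 to 3, at 20.9 and 34.1 CPM in CTC, and at 32, 29.3 and 30.2 CPM in PC. The PC libraries were the closest to each other, and the TSC and CTC libraries scattered to both sides of them. Its log2 fold change was 0.01 in TSC against PC (−0.48 to 0.49, edgeR adjusted p = 0.995) and −0.06 in CTC against PC (−0.63 to 0.51, adjusted p = 0.911).

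YAP1 lies on chromosome 11 from 102110447 to 102233424. It was at 127, 119 and 107 CPM in TSC replicates 1 to 3, at 129 and 84.3 CPM in CTC replicates 1 and 2, and at 140.0, 143 and 165 CPM in PC replicates 1 to 3. Each TSC and CTC library again lay below each PC library, by a smaller step than for CCN1. YAP1 was not called, at −0.34 ± 0.18 SE in TSC against PC (95% interval −0.73 to 0.04, edgeR adjusted p = 0.551) and −0.52 ± 0.21 SE in CTC against PC (−0.98 to −0.07, adjusted p = 0.157). In CTC against PC limma-voom called it lower (−0.62, adjusted p = 0.0394), and the value was −0.83 without CTC replicate 1 and −0.22 without CTC replicate 2.

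WWTR1 lies on chromosome 3 from 149517235 to 149724788. It was at 112, 136 and 113 CPM in TSC replicates 1 to 3, at 133 and 101 CPM in CTC replicates 1 and 2, and at 105, 112 and 136 CPM in PC replicates 1 to 3. The ranges of the 3 groups covered each other. Its log2 fold change was 0.04 in TSC against PC (95% interval −0.34 to 0.42, edgeR adjusted p = 0.964) and −0.03 in CTC against PC (−0.47 to 0.41, adjusted p = 0.944). An antisense gene, WWTR1-AS1, overlaps it and held 0 to 26 counts in a library against 133 to 2610 for WWTR1. The sources used here do not give the strand setting of the counting, so reads from the overlap cannot be told apart. The same holds where RefSeq places CCN2-AS1 over CCN2, FSIP1 and THBS1-IT1 over THBS1, and YAP1-DT over YAP1.

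The ratio of the 2 coactivators needs no scaling between libraries. YAP1 counts per WWTR1 count were 1.13, 0.872 and 0.946 in TSC replicates 1 to 3, 0.970 and 0.836 in CTC replicates 1 and 2, and 1.33, 1.28 and 1.21 in PC replicates 1 to 3. The ratio averaged 0.983 ± 0.134 in TSC (SD, n = 3), 0.903 ± 0.0945 in CTC (SD, n = 2) and 1.27 ± 0.0582 in PC (SD, n = 3), and every TSC and CTC library lay below every PC library. This ratio was chosen after its values were seen and was not tested.

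TEAD4, the DNA-binding partner, lies on chromosome 12 from 2959397 to 3040676. It was at 15.8, 22.7 and 23.7 CPM in TSC replicates 1 to 3, at 16.0 and 25.5 CPM in CTC replicates 1 and 2, and at 24.8, 21.8 and 29 CPM in PC replicates 1 to 3. The groups overlapped. The log2 fold change was −0.27 in TSC against PC (95% interval −0.78 to 0.24, edgeR adjusted p = 0.75) and −0.19 in CTC against PC (−0.81 to 0.42, adjusted p = 0.718).

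**Figure D3:**
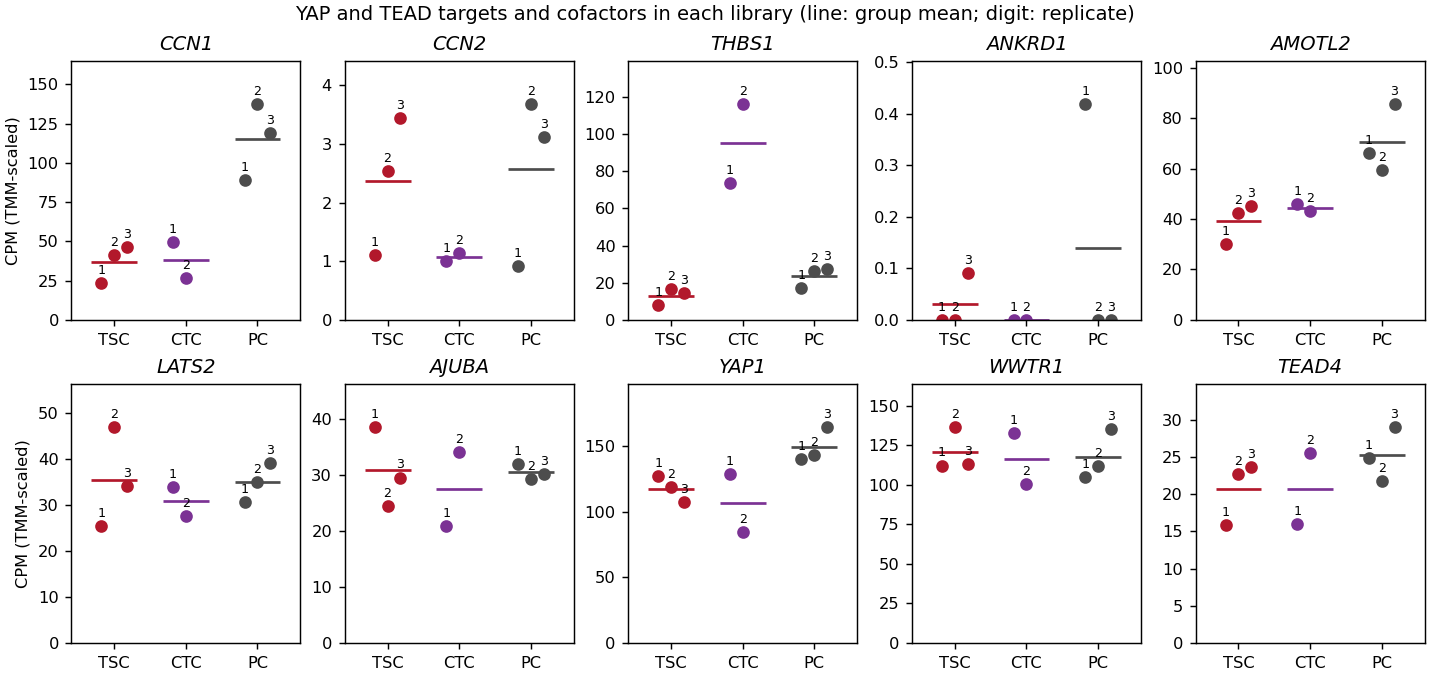
CPM of each of the 10 genes in the 8 libraries, with TSC in red, CTC in purple and PC in grey, lines at group means and digits for replicate numbers. The TSC and CTC points of CCN1, AMOTL2 and YAP1 all lie below the PC points, and the CTC points of THBS1, at 73.8 and 116 CPM, lie above all others.

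Counting only whether ranges overlapped, 4 of the 9 tested genes had all TSC libraries below all PC libraries (CCN1, THBS1, AMOTL2 and YAP1), against 9.9% of all tested genes, and 0 lay wholly higher, against 8.96% (18.9% in either direction). For CTC, 3 of 9 lay wholly lower than PC (CCN1, AMOTL2 and YAP1), against 24.7% of all tested genes, and THBS1 lay wholly higher, against 19.9% (44.6% in either direction). The CTC shares are thus close to the background. In TSC against CTC THBS1 alone of the 9 did not overlap, lower in TSC, against 13% of all tested genes lower and 28.4% in either direction.

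Across the 8 libraries the 9 genes did not share a single profile. Likeness was measured as the root mean square difference of log2 CPM after centring each gene on its own mean. The closest 2 of the 9 were LATS2 and WWTR1, at 0.17, followed by YAP1 and WWTR1, at 0.24. THBS1 stood farthest from all the others, at 1.17 from TEAD4 up to 1.54 from CCN2, and CCN1 was 0.84 from CCN2. Among 9511 genes of at least moderate level, the closest to CCN1 were SOX9 (0.28), a transcription factor gene of intestinal progenitors, PLEKHG1 (0.30) and BAMBI (0.30), a TGF-β pseudoreceptor gene, where the median gene was 0.95 away. These genes were picked by their profile over the same libraries, so their differences between groups follow from the choice. Closest to AMOTL2 were ZNF37BP, KLHL24 and SULF2 (0.15, 0.15 and 0.16), and closest to CCN2 were PRICKLE3, CHST14 and LAMA3 (0.32, 0.36 and 0.38).

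A wider view of the pathway came from lists chosen by function. Over all tested genes, 0.505% were called in TSC against PC, 3.92% in CTC against PC and 0.898% in TSC against CTC. An unadjusted p under 0.05 was held by 10.3%, 23.6% and 16.7% of them, in the same order. Each list count below is to be read beside these shares. Of 17 further genes commonly used as YAP and TEAD targets 15 were tested. In TSC against PC 0 rose and 0 fell by edgeR, and 5 had an unadjusted p under 0.05, with a median log2 fold change of −0.14 against 0.01 for all tested genes. For CTC against PC, 0 rose and 0 fell by edgeR, and 3 had an unadjusted p under 0.05, with a median of −0.13 against −0.04. TGFB2, which encodes a TGF-β ligand, was the exception in TSC against CTC, where 1 fell and 14 were not called. It was at 5.79, 4.8 and 3.53 CPM in TSC, 28.9 and 15.5 CPM in CTC, and 15.5, 12.9 and 11.3 CPM in PC, and was lower in TSC than in CTC by a log2 fold change of −2.16 ± 0.38 SE (edgeR adjusted p = 0.0141, and 0.0784 without TSC replicate 3). Against PC it was at −1.51 in TSC (adjusted p = 0.0591) and 0.65 in CTC (adjusted p = 0.29), the same order of groups as THBS1.

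The Hippo kinases and scaffolds, which act upstream of YAP, numbered 21 and all were tested. In TSC against PC edgeR called 0 of them, and 3 of the 21 had an unadjusted p under 0.05, against 10.3% of all tested genes. The median of the list was −0.15, against 0.01 for all tested genes. Of the 21, 3 fell in CTC against PC, 0 rose and 18 were not called, where 2.52% of all tested genes were called lower. The median there was −0.11, against −0.04 for all tested genes. Those that fell were AMOT, the angiomotin gene (7.42 ± 0.787 CPM in CTC, n = 2, and 23.3 ± 5.42 CPM in PC, n = 3, log2 −1.70, adjusted p = 0.0179), WWC1, the scaffold gene KIBRA (−0.89, adjusted p = 0.0276), and MAP4K4, a kinase gene that acts on LATS (−0.67, adjusted p = 0.0451). All of these calls were lost without CTC replicate 2, which leaves 1 shallow CTC library. The log2 fold changes were then −1.56, −0.79 and −0.66. AMOT was also not called without PC replicates 2 or 3, WWC1 without any 1 PC library or TSC replicate 3, and MAP4K4 without CTC replicate 1, any 1 PC library or TSC replicate 3. The core kinase genes LATS1 (0.49, adjusted p = 0.212) and STK3 (0.42, adjusted p = 0.331) were not called in CTC against PC.

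Of 7 other TEAD and VGLL genes 4 were tested. Of these, 2 fell in CTC against PC and 2 were not called. TEAD2 was at 12 and 17.1 CPM in CTC replicates 1 and 2 and at 39.1, 33.4 and 33.5 CPM in PC (log2 −1.19 ± 0.26 SE, edgeR adjusted p = 0.0231). VGLL4, which encodes a protein that competes with YAP for TEAD, had 34.9 and 24.0 CPM in CTC replicates 1 and 2, against 52.9, 61.2 and 74.8 CPM in PC (−1.18 ± 0.28 SE, adjusted p = 0.0316). Both calls were lost without CTC replicate 2 (adjusted p = 0.162 and 0.338) or any 1 PC library, and that of VGLL4 also without TSC replicate 3 (adjusted p = 0.0583). In TSC against PC edgeR called 0 of the 4, with 2 at an unadjusted p under 0.05, VGLL4 at −0.81 (adjusted p = 0.163) and TEAD2 at −0.49 (adjusted p = 0.436). TEAD1 was not called in TSC (0.36, adjusted p = 0.54) or CTC (0.13, adjusted p = 0.746) against PC. Of 12 genes of cell polarity and cadherin inputs 10 were tested, with 0 called by edgeR in TSC against PC, 2 of them at an unadjusted p under 0.05. LLGL2, a polarity gene, was the 1 member that fell in CTC against PC (−0.87, adjusted p = 0.0451), and its call was lost in 6 of the 8 single omissions (all but TSC replicates 1 and 2), with a median for the list of −0.60.

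CCN1 is itself induced as an immediate early gene. Of 25 tested genes of this list other than CCN1, 1 fell in TSC against PC, 0 rose and 24 were not called, with a median of −0.51 and 22 of 25 negative, against 49.1% of all tested genes. Of the same 25, 9 fell in CTC against PC, 0 rose and 16 were not called. The median there was −1.0 and 22 of 25 were negative, against 52.6% of all tested genes. An unadjusted p under 0.05 was held by 15 of the 25 in TSC against PC, against 10.3% of all tested genes. In CTC against PC it was held by 17 of the 25, against 23.6%. FOSB, a subunit of AP-1, was at 169.6, 179 and 193 CPM in TSC replicates 1 to 3, 83.8 and 56.4 CPM in CTC, and 281, 509 and 449 CPM in PC. It fell in TSC against PC (log2 −1.19 ± 0.22 SE, edgeR adjusted p = 0.0221), a call lost without TSC replicate 3 (adjusted p = 0.11), PC replicate 2 (adjusted p = 0.172) or PC replicate 3 (adjusted p = 0.111). It fell further in CTC against PC (−2.61 ± 0.27 SE, adjusted p = 0.000134), a call kept in all 8 single omissions. FOSB was also higher in TSC than in CTC (log2 1.41 ± 0.26 SE, edgeR adjusted p = 0.0225, lost without TSC replicate 3 or CTC replicate 2, at adjusted p = 0.119 and 0.194). The other members with the smallest p in CTC against PC were JUNB (−1.51, adjusted p = 0.00653), EGR3 (−2.91, adjusted p = 0.00811), EGR1 (−2.84, adjusted p = 0.0126), IER2 (−1.16, adjusted p = 0.0179) and NR4A1 (−1.95, adjusted p = 0.0189). Without CTC replicate 2 JUNB, EGR3, IER2 and NR4A1 were not called (adjusted p = 0.167, 0.25, 0.242 and 0.242), and EGR3 was at −1.67. IER2 was also not called without any 1 PC library, nor NR4A1 without PC replicate 2, whereas EGR1 was called in all 8 single omissions. The size of the EGR1 difference rested on single libraries, since the CTC libraries were at 369 and 61.3 CPM and the log2 fold change was −4.59 without CTC replicate 1 and −2.002 without CTC replicate 2. Their part in the CCN1 result was not tested.

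**Figure D4:**
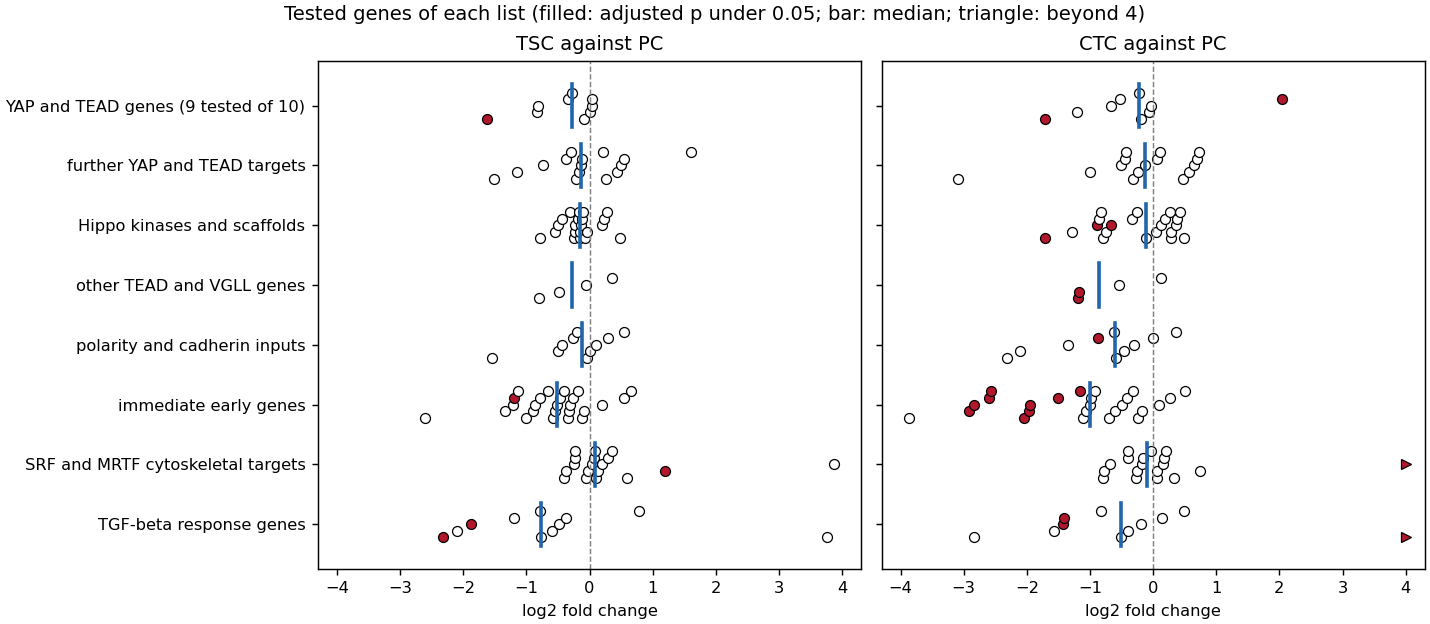
Log2 fold changes of the tested genes of each list in TSC against PC (left) and CTC against PC (right), filled where the adjusted p was under 0.05, with bars at list medians and triangles for values above 4. Of the lists plotted, immediate early genes had the lowest median in CTC against PC, at −1.0, and further YAP and TEAD targets held 0 called genes in both.

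Fibroblasts and endothelial cells also express CCN1, CCN2 and THBS1. The 8 fibroblast markers (6 with counts, DCN and LUM at 0) summed to 8.69 to 112 CPM in TSC, 7.73 and 16.0 CPM in CTC and 29.1 to 68.4 CPM in PC. The sum was thus lower in both CTC libraries than in PC, as CCN1 was, and spread over and beyond the PC range in TSC. It was 8.69, 31.4 and 112 CPM in TSC replicates 1 to 3 and 16.0 and 7.73 CPM in CTC replicates 1 and 2, the same order of libraries within each of these groups as that of CCN1, while in PC, at 68.4, 34.8 and 29.1 CPM, the library with the highest sum had the lowest CCN1. Nearly all of the fibroblast sum came from COL1A1, COL1A2 and COL3A1, at 70.8, 22.2 and 17.7 CPM in TSC replicate 3. PDGFRB, PDGFRA and FAP did not exceed 0.724 CPM in any library. The 7 endothelial markers (6 with counts, EMCN at 0) summed to 1.18 to 3.34 CPM in TSC, 3.81 and 3.99 CPM in CTC and 1.47 to 2.68 CPM in PC. The part of these cells in the results was not tested.

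**Figure D5:**
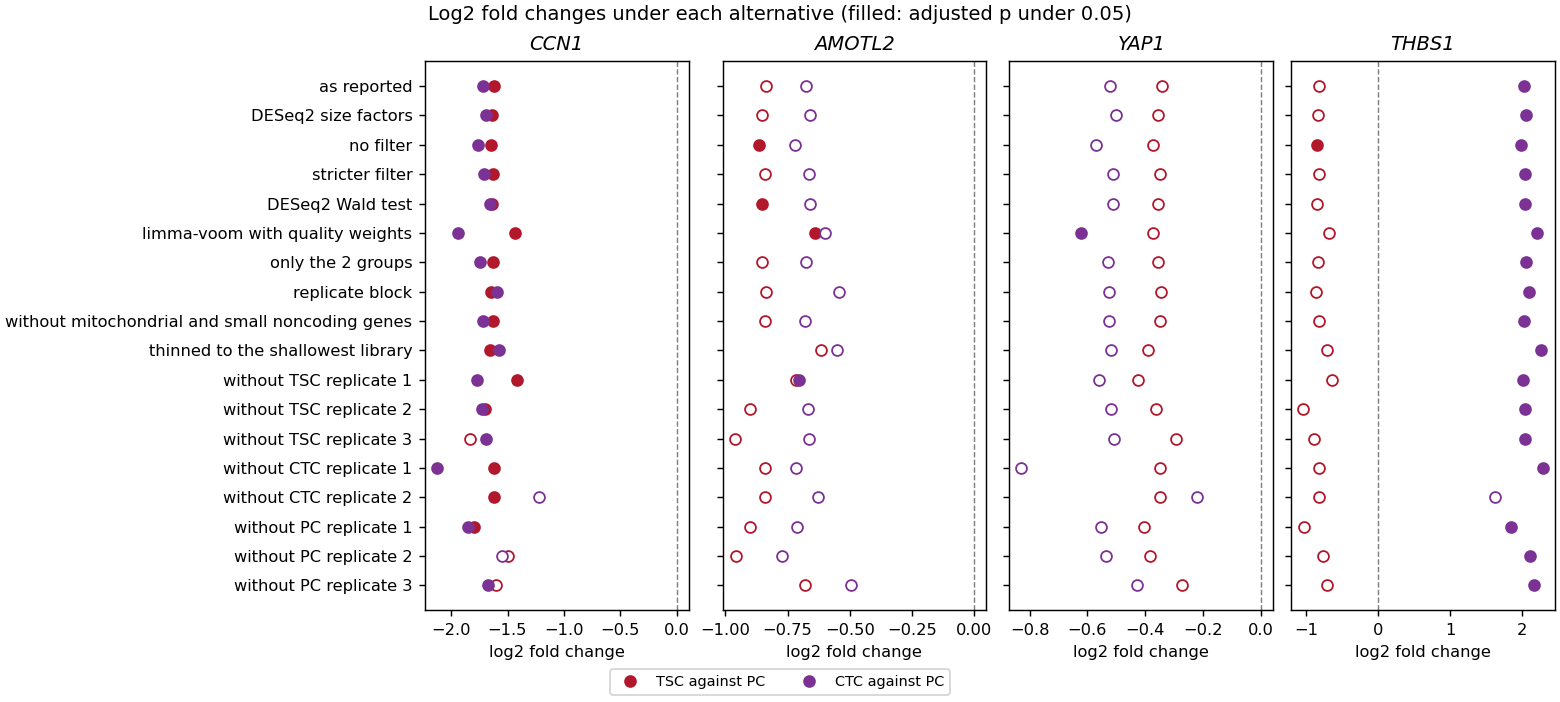
Log2 fold changes of CCN1, AMOTL2, YAP1 and THBS1 in TSC against PC (red) and CTC against PC (purple) as reported and under 17 other settings, filled where the adjusted p was under 0.05. CCN1 stayed negative throughout and lost its call in 3 settings for TSC and 2 for CTC, all of them omissions of single libraries.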

How the data were processed

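The deposited table holds raw counts per gene that the authors did not normalize. Per the submitters' processing notes, the tools were STAR 2.5.3a and featureCounts 1.5.3 on hg38. The sources used here do not give the annotation, the strand setting or any removal of host reads. Per the labels' protocols, ribosomal RNA was removed from total RNA. The quasi-likelihood test of edgeR 4.0.16 (R 4.3.3; filterByExpr, TMM) was fitted once to all 8 libraries, so that the 2 CTC libraries share the estimate of spread. A gene was called where p, adjusted by Benjamini-Hochberg over 14255 genes, was under 0.05. Every adjusted p is from this test unless another tool is named. SE is the fold change divided by the square root of F, and intervals use its t quantile. The quasi-likelihood code was tested on simulated data. CPM used TMM-scaled totals of tested genes. Exon lengths are unions over GENCODE v29, and coordinates are RefSeq's on GRCh38. In lists, called genes are named, at most 6 per list and comparison by smallest adjusted p, and the 3 genes most like CCN1, CCN2 and AMOTL2 among those of average log2 CPM 3 or more. TGFB2's values against PC, LATS1, STK3, TEAD1 and SMAD7 were chosen after their values were seen. Genes and lists were chosen with earlier results of these data known. Alternatives used DESeq2 1.42.0, limma 3.58.1 and the settings named in the closing section.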

Additional observations from a re-analysis of the deposited data

Results flagged for a closer look

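THBS1 differed between TSC and CTC. Its log2 fold change in TSC against CTC, which is the difference between the contrasts of each group with PC, was −2.85 (edgeR adjusted p = 0.000199), with 3 of 3 TSC libraries below and 2 of 2 CTC libraries above all 3 PC libraries. TSC against PC alone was not called (adjusted p = 0.301). Leukocyte markers summed to 27.0 to 52.0 CPM in TSC, 409 and 157 CPM in CTC and 14.8 to 23.6 CPM in PC. CD68 alone made up most of the TSC and PC sums, and was at 19.9 and 14.2 CPM in CTC. Of the CTC libraries, replicate 1 had the higher leukocyte sum and replicate 2 the higher THBS1 level. The part of leukocytes in the THBS1 result was not tested.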

How the results depend on the processing

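For TSC against PC, 1 of the 9 genes was called as reported, against 3 with no filter on low counts, 2 by DESeq2, 2 by limma-voom and 0 to 1 when single libraries were left out. For CTC against PC 2 were called, against 0 to 3 over single omissions. For TSC against CTC 1 was called under all 17 settings. Of 456 fold changes of the tested genes under these settings, 444 kept their direction where called and their side of the threshold, 6 lost a call, 6 gained one and 0 reversed. DESeq2 size factors moved the median of all genes by at most 0.03 on the log2 scale. Counts over all genes moved more, from 72 called in TSC against PC to 355 with no filter, 185 by DESeq2, 553 by limma-voom and 10 to 153 over single omissions, and from 559 in CTC against PC to 1535 with no filter, 1105 by DESeq2, 1660 by limma-voom, 1409 with only the 2 groups and 35 (without CTC replicate 2) to 1575 (without TSC replicate 1) over single omissions. In TSC against CTC 128 were called, against 728 with no filter, 385 by DESeq2, 440 by limma-voom and 36 to 696 over single omissions. With the replicate number as a block the calls among the 9 genes were 1, 2 and 1 in TSC against PC, CTC against PC and TSC against CTC, and over all genes 67, 261 and 61. Thinning all libraries to the shallowest gave 43, 281 and 54 over all genes, the 2 groups alone gave 128 in TSC against PC and 82 in TSC against CTC, and a stricter filter gave 58 in TSC against CTC. Correlations of the deviations of libraries that share a number were −0.13 to 0.09 for TSC and PC, 0.02 and 0.04 for CTC and PC and −0.05 and −0.02 for TSC and CTC, so the numbers were not taken to pair the samples. TSC replicate 3 correlated best with its own number in PC, TSC replicates 1 and 2 did not. Both CTC libraries did so too. Deviations of 2 libraries from their own mean are mirror images of each other, so the CTC matches are not 2 separate observations. This check cannot decide whether CTC and PC samples were paired. Where 1 CTC library was left out, the other was assumed to vary like the other groups. Depth limits CCN2 and ANKRD1 most, and CTC replicate 1 throughout.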

Other observations

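Other programmes touch the same genes, since SRF with its MRTF cofactors, like YAP, responds to the actin cytoskeleton, and CCN2 and THBS1 also respond to TGF-β. Of 18 tested cytoskeletal targets of SRF, TAGLN2, which encodes transgelin 2, was the 1 that rose in TSC against PC, at 557, 498 and 510.0 CPM in TSC replicates 1 to 3 and 222, 222 and 238 CPM in PC (log2 1.2 ± 0.16 SE, edgeR adjusted p = 0.00373, and 0.0549 without PC replicate 2). It was higher in TSC than in CTC as well (0.87, adjusted p = 0.043), a call lost in 6 of the 8 single omissions (all but TSC replicates 1 and 2). The median of the list in TSC against PC was 0.08, against 0.01 for all tested genes. An unadjusted p under 0.05 was held by 3 of the 18, against 10.3%. In CTC against PC ACTG2, an actin gene of smooth muscle, was the 1 that rose. It was at most 0.995 CPM in TSC and passed the filter on low counts through the CTC libraries. Its rise therefore follows in part from that filter. CTC replicates 1 and 2 had 15.0 and 6.77 CPM of it, while the PC libraries had between 0 and 0.0838 CPM (adjusted p = 0.00975, and 0.109 without CTC replicate 2).

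TGF-β response genes lay lower in TSC, where 2 of 11 tested genes fell, 0 rose and 9 were not called, with a median of −0.77. In TSC against PC 9 of the 11 were negative, against 49.1% of all tested genes. An unadjusted p under 0.05, in either direction, was held by 10 of the 11, against 10.3%. In CTC against PC it was held by 7 of the 11, against 23.6%. BAMBI was at 14.7, 14.6 and 18.6 CPM in TSC, 28.9 and 18.1 CPM in CTC and 51.3, 63.6 and 61.7 CPM in PC (log2 −1.87 ± 0.22 SE in TSC against PC, edgeR adjusted p = 0.00164). BAMBI kept that call in all 8 single omissions, whereas PMEPA1 (−2.32, adjusted p = 0.0477) kept it in 3. In CTC against PC 2 fell, BAMBI (−1.43, adjusted p = 0.0124) and ID1 (−1.41, adjusted p = 0.0437), and both calls were lost without CTC replicate 2 (adjusted p = 0.242 and 0.359) and without PC replicates 2 or 3, that of ID1 also without PC replicate 1 or TSC replicate 3. TGFBI, a matrix protein gene that macrophages also express, rose in CTC. In TSC it was at most 0.706 CPM, so TGFBI passed the filter on low counts only through the CTC libraries. Its height in CTC follows in part from that filter. CTC replicates 1 and 2 had 42.9 and 4.86 CPM of it, while the PC libraries had between 0 and 0.092 CPM (adjusted p = 0.00309), and was lower in TSC than in CTC (adjusted p = 0.0293, lost without TSC replicates 2 or 3 or CTC replicate 1). The leukocyte sum was also higher in CTC replicate 1 than in replicate 2, at 409 and 157 CPM. THBS1 had the opposite order, at 73.8 and 116 CPM. These orders rest on 2 libraries, and the part of leukocytes in the TGFBI result was not tested. SMAD7 (−2.11, adjusted p = 0.135), a TGF-β-induced gene, was not called in TSC against PC.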
